A study of Mus musculus with 6 samples.

Results

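Immunoglobulin G (IgG) receptors of phagocytes, receptors of the TREM family and the signalling partners they share were followed in 6 arrays of mouse satellite cells. The gene group comprised the Fcγ receptors Fcgr1, Fcgr2b, Fcgr3 and Fcgr4, the adaptors Fcer1g and Tyrobp, the receptors Trem1, Trem2 and Fcrls, and the kinase Syk. Its members were the non-control spots that the scanner files name with one of these 10 symbols. The genes were 10 of 28307 gene names on the array, with 18 probes on 27 spots, of 41174 probes on 43379 non-control spots. Of the 10 genes, 3 had 1 probe, 6 had 2 and Fcgr2b had 3, of which 1 was spotted 10 times. Total RNA came from satellite cells, the muscle stem cells, of female mice, collected from skeletal muscle and labelled as proliferating. The 3 Magic-F1 samples are given as Magic-F1 +/+, and Magic-F1 is an engineered protein, built from parts of hepatocyte growth factor, that activates the receptor MET. The 3 control samples carry the word MLC3F in their titles and the 3 Magic-F1 samples the word Omo, neither of which the labels explain. The promoter that drives the transgene, the age of the animals and any pooling are not given in the sources used here. There was 1 single-colour Agilent array per sample. The labels speak of biological triplicates but name no separate animals or cultures, so p-values speak only of the spread among these samples, and that spread may be technical.

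Fcγ receptors bind the constant part of IgG and let phagocytes take up antibody-coated particles. Activating receptors have no signalling tail of their own and depend on the Fc receptor γ chain, encoded by Fcer1g, which carries an immunoreceptor tyrosine-based activation motif (ITAM). TREM receptors pair in the same way with DAP12, the ITAM adaptor encoded by Tyrobp. Once Src-family kinases phosphorylate an ITAM, the kinase SYK binds it through its paired SH2 domains and starts signalling. Fcgr2b is the exception among the Fcγ receptors, since its own tail holds an inhibitory motif (ITIM) that recruits phosphatases. These genes are best known from macrophages, microglia, neutrophils and other leukocytes, and are not part of the usual description of muscle stem cells.

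Every probe was 60 bases long, with 38.3% to 55.0% G and C. Probes of the adaptors and of the 4 genes whose probes bear most on the results are printed here 5′ to 3′ as the scanner files give them. The files place the Tyrobp probe on mm9 at chr7:31200651-31202378 (plus strand), a stretch that holds 1668 bases beyond the probe itself. The Fcer1g probes lie at chr1:173159794-173159853 and chr1:173159846-173159918 (minus strand). The run of 8 bases that both hold is in capitals. The Trem2 probes lie at chr17:48491522-48491581 and chr17:48491220-48491356 (plus strand), and the Trem1 probes at chr17:48385230-48385289 and chr17:48383969-48384028 (plus strand). The Fcrls probes lie at chr3:87056422-87056481 and chr3:87055125-87055184, and the Fcgr1 probes at chr3:96088140-96088199 and chr3:96088398-96088461 (all minus strand). The sequences follow in the same order.
Tyrobp A_51_P261517: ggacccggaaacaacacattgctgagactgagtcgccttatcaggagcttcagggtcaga
Fcer1g A_51_P405476: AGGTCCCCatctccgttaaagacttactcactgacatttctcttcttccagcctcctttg
Fcer1g A_51_P405478: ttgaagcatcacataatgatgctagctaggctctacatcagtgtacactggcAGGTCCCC
Trem2 A_51_P269546: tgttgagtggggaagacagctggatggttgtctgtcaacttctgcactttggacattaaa
Trem2 A_51_P269549: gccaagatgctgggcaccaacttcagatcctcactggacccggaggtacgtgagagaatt
Trem1 A_52_P415116: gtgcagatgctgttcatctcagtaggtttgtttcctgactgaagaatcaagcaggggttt
Trem1 A_51_P398491: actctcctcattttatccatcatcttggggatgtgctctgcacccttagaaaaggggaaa
Fcrls A_52_P231075: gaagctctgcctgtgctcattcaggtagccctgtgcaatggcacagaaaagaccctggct
Fcrls A_51_P172168: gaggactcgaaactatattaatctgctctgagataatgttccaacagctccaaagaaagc
Fcgr1 A_51_P296755: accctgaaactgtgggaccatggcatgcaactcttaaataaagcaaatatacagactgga
Fcgr1 A_52_P47846: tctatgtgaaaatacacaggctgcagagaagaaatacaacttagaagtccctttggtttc
Fcgr2b, Fcgr3, Fcgr4 and Fcer1g were all probed on chromosome 1, between the Fcgr2b probe at chr1:172890988-172891047 and the Fcer1g probes. The longest run of bases shared by probes of different genes of the group was 9, between Tyrobp and Trem2. Matches of the probes to other transcripts were not analysed here. Exon positions were not analysed either, since no annotation of this build was used.

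Spot signals had a 75th percentile of 341 to 356 on the Magic-F1 arrays and 275 to 292 on the control arrays. On each array 49.2% to 52.0% of the spots stood well above background, and 0 were saturated. Correlations between arrays were at least 0.996 within groups and at most 0.849 between groups. Counts of marker genes stand beside the shares of all tested genes, of which 40.6% were called higher and 47.7% lower on the Magic-F1 arrays. A marker dim on all arrays of a group, that is, not well above background, was tested through the other group alone. A call for such a marker could hardly go the other way. Of 11 tested macrophage markers, 10 were higher and 1 lower on the Magic-F1 arrays (median log2 change 5.06), and their summed level, in multiples of the array's 75th percentile, was 1100 to 1160 on Magic-F1 arrays against 358 to 386 on control arrays. Lyz2, the lysozyme gene, made up most of the control sum, and without it the other 10 came to 820.2 to 855 on Magic-F1 arrays against 18.5 to 19.0 on control arrays. Lyz2 was also the lower one, with log2 changes of −0.30 and 2.97 at its pair of probes and 0.12 at the first under spike-in scaling. Among the higher ones Mrc1 was dim on all control arrays. It was at least 4.29-fold higher by its bound, and higher by log2 0.59 with normexp background. Cd163 was on the array but did not pass the filter. Of 10 tested neutrophil markers, 9 were lower and 1, the growth factor receptor Csf3r, was higher, with a summed level of 1.88 to 1.96 on Magic-F1 arrays against 585 to 629 on control arrays. On no Magic-F1 array were S100a9, Camp, Ngp, Ltf or Cxcr2 well above background. Satellite cell and myoblast markers were lower for 8 of 9 tested genes, and Cd34 was not called (summed level Magic-F1 28.8 to 29.6, control 425 to 465). Cd34 changed by log2 0.60 (SE 1.03), with a wide spread on the control arrays (SD 2.17 log2), and without control replicate 3 by −0.65 (adjusted p = 4.53e-05 by limma), which makes all 9 lower. The stem cell marker Pax7 passed background on 0 of 3 Magic-F1 arrays, and Myf5 was on the array but did not pass the filter. Mast cell and basophil markers were lower for 5 of 6 tested genes (Magic-F1 0.427 to 0.483, control 1.75 to 1.91). Those 5 passed background on 0 of 3 Magic-F1 arrays, so their direction followed from the filter. The median log2 change of these markers was −4.56 as fitted, −2.50 with the 5 at their bounds and −0.96 with normexp background. The other one, Gata2, was higher. Platelet markers were lower for 4 of 4 (Magic-F1 5.33 to 5.57, control 54.8 to 64.6), and for 3 of 4 under spike-in scaling, where Gp1bb (log2 −0.54) came to −0.12. Of the platelet markers Gp9 was dim on all Magic-F1 arrays. Endothelial markers were lower for 5 of 6 (Magic-F1 0.202 to 0.242, control 7.57 to 7.95), with Kdr the higher one (log2 0.64, and −0.03 with normexp background). Pecam1, Cdh5 and Tie1 were dim on all Magic-F1 arrays. The median log2 change of the endothelial markers was −4.07 as fitted, −2.20 with these genes at their bounds and −0.90 with normexp background. Of the T, B and NK cell markers, 5 of 8 were lower, Klrb1c was higher and Cd3e and Cd79a were not called (Magic-F1 0.824 to 0.868, control 1.55 to 1.80). Klrb1c (log2 3.67 as fitted, 0.65 with normexp background) and Cd79a were dim on all control arrays. Ms4a1 and Nkg7 were dim on all Magic-F1 arrays. Adipocyte markers were higher for 5 of 5 (Magic-F1 423 to 451, control 57.9 to 64.6). The part of any of these cell types in the changes below was not tested.

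Of the 10 genes, 9 were higher on the Magic-F1 arrays and Trem1 was lower. Tested were probes that the scanner called well above background on all 3 Magic-F1 arrays or on all 3 control arrays, and 17 of the 18 member probes passed, 16 of them on all 6 arrays. By limma's moderated test, 15 member probes were higher and 2 were lower at an adjusted p under 0.05, with adjusted p between 2.03e-08 and 1.03e-05. The 15 include the dimmer Fcrls probe, which passed the filter through the Magic-F1 arrays alone, so its direction is no separate result. That probe is also in the counts of overlap and of 10-fold rises of probes below. Among probes well above background on all 6 arrays, 14 were higher and 2 lower. Of all 21190 tested probes, 41.3% were higher and 46.5% lower, 87.7% in all, and of all tested genes 88.3% were called, so a call was common on these arrays. The groups overlapped at 0 of the 17 probes, but they did not overlap at 89.1% of all tested probes and 89.8% of all tested genes either. The sizes stood further from the background. Of the 17 probes 12 were at least 10-fold higher, as were 7 of the 10 genes by their brightest probe, the tested one with the highest mean log2 signal over the 6 arrays, against 4.03% of all tested probes and 4.18% of all tested genes. The median log2 change of the 10 genes was 3.75, and that of all tested probes −0.10. A smaller share of cells of a type and less RNA per cell cannot be told apart in RNA of whole samples, and this holds for every difference given here. Signals below are the scanner's processed signals per array in the order of replicates 1, 2 and 3, before scaling between arrays. Log2 changes are Magic-F1 minus control after scaling to the 75th percentile.

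**Figure D1:**
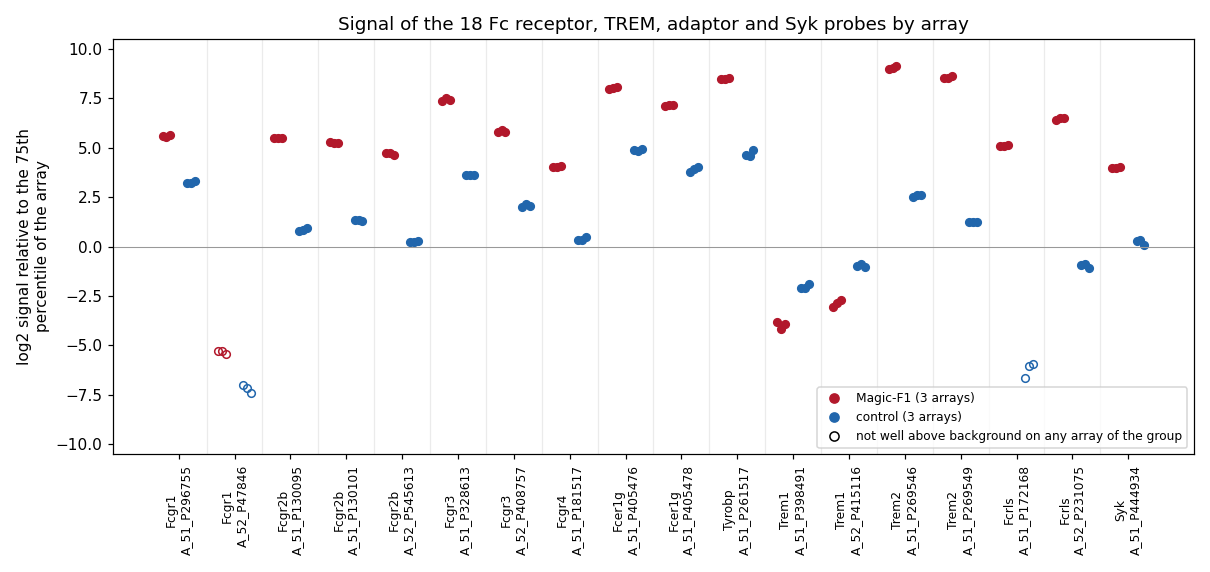
Log2 signal relative to the array's 75th percentile for the 18 probes of the 10 genes, with 1 point per array, Magic-F1 left of control at each probe. Open points mark groups in which no array was well above background. The Magic-F1 points lie above the control points for 15 of the 17 tested probes and below them for both Trem1 probes.

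Among the activating IgG receptors Fcgr3 and Fcgr4 were higher by similar folds and Fcgr1 by a smaller one. Fcgr1, the high-affinity receptor for monomeric IgG2a, had signals of 17300.1, 16263 and 16884 in Magic-F1 samples, against 2669, 2614 and 2745 in control samples. All Magic-F1 arrays lay far above all control arrays, and this was the smallest rise of the group, 5.09-fold (log2 2.35, SE 0.05, adjusted p = 1.57e-07). The second Fcgr1 probe, which the files tie to a sequence record other than a reference transcript, had signals of 9.11, 8.80 and 8.03 in Magic-F1 samples, against 2.27, 1.95 and 1.64 in control samples. With 0 of 6 arrays well above background it was not tested. Fcgr3, a low-affinity receptor for immune complexes that also serves natural killer and mast cells, had signals of 57859, 62717 and 58864 in Magic-F1 samples, against 3616, 3419 and 3331 in control samples. The rise was 14.0-fold (log2 3.81, SE 0.05, adjusted p = 3.85e-08), and the second probe gave nearly the same value (log2 3.76, SE 0.06). At Fcgr4, which binds IgG2a and IgG2b and is known from monocytes, macrophages and neutrophils, signals were 5717, 5600.1 and 5678 in Magic-F1 samples, against 365, 349 and 382 in control samples. With no overlap between the groups this came to 12.6-fold (log2 3.65, SE 0.06, adjusted p = 5.39e-08).

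Fcgr2b, the inhibitory receptor, was higher at all 3 of its probes, by 15.2-fold to 25.01-fold. Its brightest probe by mean log2 signal over the 6 arrays (A_51_P130101) had signals of 13713, 13229 and 12702 in Magic-F1 samples, against 735, 697 and 684 in control samples. The log2 change was 3.92 (SE 0.04, adjusted p = 2.29e-08). Probe A_52_P545613, which lies furthest upstream in the gene on its minus strand, at chr1:172895833-172895892, gave a log2 change of 4.43 (SE 0.05). The remaining probe, A_51_P130095, was spotted 10 times on each array, so the noise between spots can be read directly. Its mean signal was 15949, 15764 and 15318 in Magic-F1 samples, against 509, 490.3 and 524 in control samples. The SD between its spots on an array was 0.05 to 0.07 log2 on the Magic-F1 arrays and 0.03 to 0.08 on the control arrays, while the groups differed by 4.64 (SE 0.05, adjusted p = 2.45e-08). The lowest of its Magic-F1 spots was at 14667 and the highest of its control spots at 572. The probes of the gene thus differed by 0.72 log2 in their change, a ratio of 1.65 between their folds, which exceeds the spread between spots and between arrays. A_51_P130095 had the higher signals on the Magic-F1 arrays, and the choice of probe sets the fold given for the gene and its ratios to other genes. Which of them best follows the transcript was not tested.

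**Figure D2:**
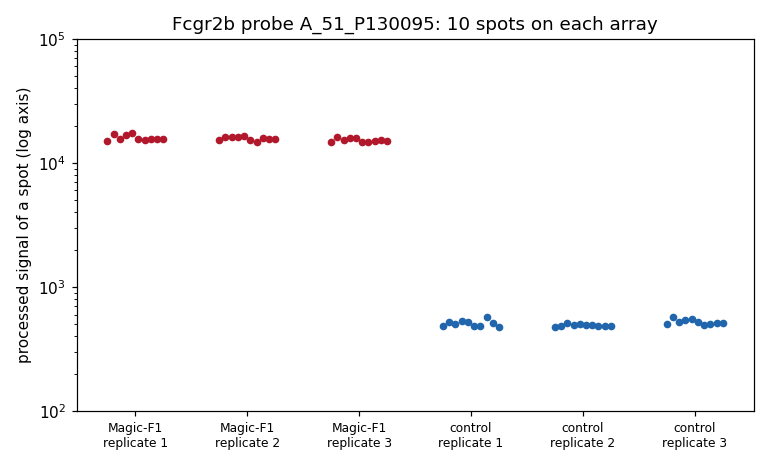
Processed signal (log axis) of the 10 spots of Fcgr2b probe A_51_P130095 on each array, with 1 point per spot and Magic-F1 arrays left of control arrays. The Magic-F1 spots lie at 14667 or higher and the control spots at 572 or lower.

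Both ITAM adaptors rose, Tyrobp 13.7-fold and Fcer1g 8.78-fold. Fcer1g had signals of 89826, 89445 and 90002 in Magic-F1 samples, against 8568, 7894 and 8395 in control samples. The change was 8.78-fold (log2 3.13, SE 0.05, adjusted p = 5.06e-08), and at the second probe 9.44-fold (log2 3.24, SE 0.07). Tyrobp had signals of 125207, 121122 and 126020 in Magic-F1 samples, against 7305, 6674 and 8169 in control samples. All Magic-F1 arrays were far above the highest control array, replicate 3, and the rise was 13.7-fold (log2 3.77, SE 0.09, adjusted p = 1.89e-07). Genes whose 6 values moved most like those of each adaptor were sought among 12803 others, by the root mean square difference between the deviations from their own means. Nearest to Tyrobp were Epas1 (0.045 log2), a hypoxia-inducible transcription factor, Pdxk (0.050), the kinase that activates vitamin B6, and Rgs1 (0.054), a regulator of G protein signalling. Nearest to Fcer1g were Mfhas1 (0.025), Ttc7 (0.029) and St8sia4 (0.035), a polysialyltransferase. With 6 arrays in 2 groups this likeness mostly restates a similar difference between the groups, and no shared control is implied.

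The 2 TREM receptors of the group went in opposite directions. Trem2, a receptor for lipids and apolipoproteins on macrophages, microglia and osteoclasts, had signals of 177760, 180297 and 193932 in Magic-F1 samples, against 1676, 1681 and 1687 in control samples. The rise was 88.6-fold (log2 6.47, SE 0.06, adjusted p = 2.25e-08). Its other probe had signals of 132423, 128125 and 132736 in Magic-F1 samples, against 689, 669 and 655 in control samples, a rise of 158-fold (log2 7.31, SE 0.04, adjusted p = 2.03e-08). Both probes were well above background on all 6 arrays, and they differed in their change by 0.84 log2. Trem1, which amplifies inflammatory responses of neutrophils and monocytes, had signals of 42.5, 48.5 and 53.2 in Magic-F1 samples, against 147, 151 and 133 in control samples. The groups did not overlap, and Trem1 was 3.70-fold lower (log2 −1.89, SE 0.11, adjusted p = 7.46e-06). Its other probe had signals of 25.7, 19.2 and 22.8 in Magic-F1 samples, against 67.5, 64.9 and 74.7 in control samples, 3.80-fold lower (log2 −1.92, SE 0.12). These signals are dim, and the size depends on the background correction and the scaling. With normexp background the brighter probe was 2.19-fold lower (log2 −1.13) and the other 1.94-fold lower (log2 −0.96), and with spike-in scaling 2.76-fold and 2.83-fold lower. The fall went with the lower neutrophil list given above, whose median log2 change was −8.98 as fitted, −7.86 with its 5 genes that were dim in Magic-F1 samples at their bounds and −5.48 with normexp background, and whose part in it was not tested.

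Fcrls, a scavenger-type relative of the Fc receptors known from microglia and macrophages of the mouse, showed the largest rise among the 10 genes by their brightest probes. Its brighter probe had signals of 29777, 31621 and 30654 in Magic-F1 samples, against 151, 154 and 129 in control samples. The change was 173-fold (log2 7.43, SE 0.08, adjusted p = 2.25e-08). The other probe had signals of 12199.9, 11857 and 11977 in Magic-F1 samples, against 2.91, 4.25 and 4.54 in control samples, where 0 of 3 arrays were well above background. It was at least 1090-fold higher. No p-value is given for this bound, since the probe passed the filter through the Magic-F1 arrays alone. This bound sets the Magic-F1 mean against the lowest signal that still counted as well above background on each control array. With normexp background, which lifts dim values, the log2 changes were 6.95 at the brighter probe (123-fold) and 7.25 at the other (152-fold), so the fold of the dimmer probe depends on the background correction.

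Syk, the kinase that binds phosphorylated ITAMs, had signals of 5526, 5342 and 5591 in Magic-F1 samples, against 360.2, 352 and 295 in control samples. The lowest Magic-F1 array was far above the highest control array. The rise was 13.3-fold (log2 3.73, SE 0.08, adjusted p = 1.08e-07). It came close to those of Fcgr3, Fcgr4 and Tyrobp, whose brightest probes changed by log2 3.65 to 3.81.

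**Figure D3:**
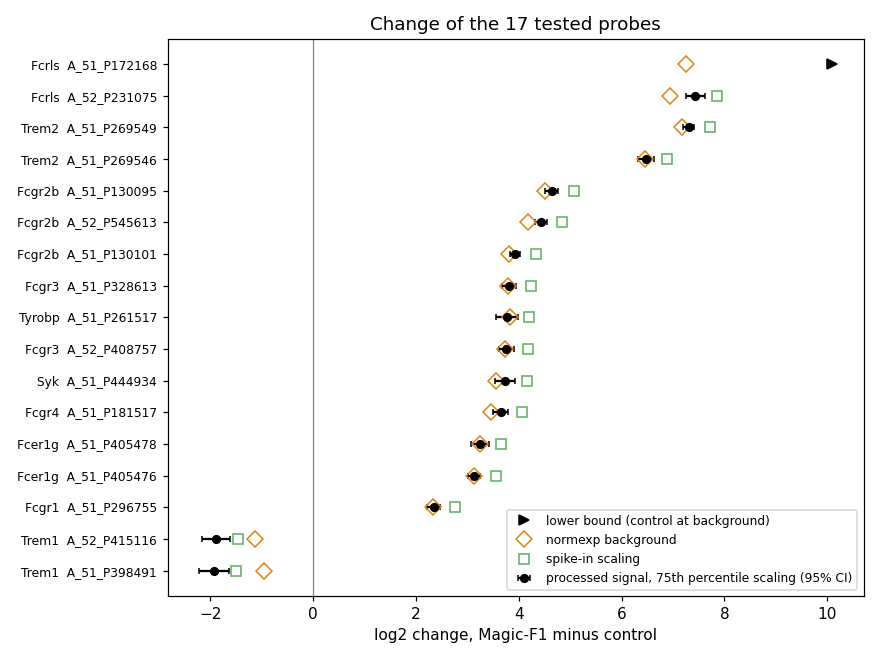
Log2 change, Magic-F1 minus control, of the 17 tested probes, with filled circles and 95% confidence intervals for the scaled processed signal (n = 3 arrays per group), and a triangle at the lower bound for the Fcrls probe that was dim in control samples. Open diamonds show the same change with normexp background and open squares with spike-in scaling. The rises run from 2.35 at Fcgr1 to 7.43 at the brighter Fcrls probe, the dimmer one stands at 10.09 or more (7.25 with normexp background), and both Trem1 probes lie below 0 under all 3 treatments.

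Slide 1 held the arrays numbered 1 and 3 of each group, and slide 2 those numbered 2. Within slides 1 and 2 the log2 changes of the brightest probes were 2.36 and 2.32 for Fcgr1, 3.92 and 3.93 for Fcgr2b, 3.77 and 3.88 for Fcgr3, and 3.63 and 3.69 for Fcgr4. They were 3.11 and 3.19 for Fcer1g, 3.72 and 3.87 for Tyrobp, and 3.79 and 3.61 for Syk. Trem2 changed by 6.49 and 6.43, Fcrls by 7.46 and 7.37, and Trem1 by −1.86 and −1.95. Slide 2 held 1 array of each group, so its values have no test. With slide as a block all 17 probes kept their call.

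Promoter windows of the genes were also looked at, and whether any shared factor had a part in the changes was not tested. RefSeq (GRCm38.p6) windows of 300 bases that end 50 bases after a transcription start were at hand for 9 of the 10 genes, Tyrobp not among them, in 11 windows. They were searched on both strands for GAGGAA, the PU box that the myeloid factor PU.1 is known to bind, which reads TTCCTC on the other strand. The letters were found in 8 of the 11 windows, from 7 genes, against 28.3% of all 32851 windows in the table. Both Fcgr3 windows overlap and hold the same match. Counted in bases from the start, matches lay at −55 in Fcgr1, −15 in Fcgr3 (−6 from its other start), −22 in Fcgr4 and −40 in Trem2, all on the opposite strand. On the gene's own strand they lay at −144 in Fcrls, at −162 in Trem1, which fell, and at −9 from the second start of Syk. The windows of Fcer1g and Fcgr2b and the first of Syk held none. A match is only a run of letters and shows no binding. The 150 bases from 100 before to 50 after the start are printed as examples. With a match on the opposite strand they are Fcgr1 (chr3:96293920-96294069, minus strand), Fcgr3 (chr1:171059345-171059494, minus), Fcgr4 (chr1:171018826-171018975, plus) and Trem2 (chr17:48346301-48346450, plus). The example without a match is Fcer1g (chr1:171234300-171234449, minus). The second Syk window is not printed, though its match at −9 lies within these bases too. Fcgr2b and the first Syk window, which hold none either, are not printed. Capitals mark the match.
Fcgr1: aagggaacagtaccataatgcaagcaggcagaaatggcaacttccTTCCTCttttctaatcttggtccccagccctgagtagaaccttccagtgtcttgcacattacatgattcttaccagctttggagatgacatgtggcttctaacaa
Fcgr3: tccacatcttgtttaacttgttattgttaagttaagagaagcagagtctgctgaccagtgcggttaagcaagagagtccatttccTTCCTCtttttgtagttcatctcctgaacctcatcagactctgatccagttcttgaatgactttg
Fcgr4: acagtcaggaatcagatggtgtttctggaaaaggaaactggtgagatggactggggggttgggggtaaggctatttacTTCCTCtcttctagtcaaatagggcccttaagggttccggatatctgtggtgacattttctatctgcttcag
Trem2: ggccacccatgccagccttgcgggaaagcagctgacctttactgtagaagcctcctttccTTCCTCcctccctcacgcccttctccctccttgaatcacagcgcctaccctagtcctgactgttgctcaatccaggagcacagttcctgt
Fcer1g: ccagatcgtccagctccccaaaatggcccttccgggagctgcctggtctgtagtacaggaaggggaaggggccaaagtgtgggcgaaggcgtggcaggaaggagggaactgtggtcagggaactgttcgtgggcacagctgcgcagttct

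The changes of 9 pairs of these genes were then compared within each array, where scaling by a single factor per array cancels. A pairing here does not mean that the products are known to work together. A within-array log2 ratio between a pair of brightest probes says nothing about which transcript is more abundant, but its difference between groups shows unequal change. For all 9 ratios the 3 Magic-F1 arrays lay apart from the 3 control arrays, which gives a 2-sided exact permutation p of 0.1 each (0.1 after adjustment over the 9 ratios), the smallest that 3 arrays against 3 allow. The groups did not overlap at 89.1% of all tested probes either, so such separation need not be particular to these pairs. The share among ratios of other gene pairs was not computed. The log2 ratio of the activating Fcgr1 to the inhibitory Fcgr2b was 0.35 ± 0.06 in Magic-F1 samples and 1.92 ± 0.07 in control samples (SD, n = 3 each), a difference of −1.58. Since Fcgr1 itself rose, its fold was smaller than that of Fcgr2b. The ratio of Fcgr4 to Fcgr2b differed by −0.27 (Magic-F1 −1.22 ± 0.05, control −0.95 ± 0.10). That of Fcgr3 to Fcgr2b differed by −0.11 (Magic-F1 2.18 ± 0.09, control 2.29 ± 0.01), by −0.03 with normexp background and by −0.06 without Magic-F1 replicate 1. Under quantile normalization, which scales bright and dim spots unequally, it turned to 0.16, so no direction is given for this pair. With other probes of the same genes the Fcgr1, Fcgr3 and Fcgr4 ratios to Fcgr2b reached −2.30, −0.88 and −0.99, in the same direction, since the brightest Fcgr2b probe has the smallest change of the 3. The ratio of Trem2 to its adaptor Tyrobp differed by 2.70 (Magic-F1 0.57 ± 0.06, control −2.13 ± 0.14), and that of Fcrls to Tyrobp by 3.66 (Magic-F1 −2.02 ± 0.07, control −5.68 ± 0.28). Between the adaptors, Tyrobp to Fcer1g, the difference was 0.64 (Magic-F1 0.47 ± 0.03, control −0.17 ± 0.11). For Fcer1g to Fcgr3, the adaptor and the receptor it serves, it was −0.68 (Magic-F1 0.59 ± 0.07, control 1.26 ± 0.06), and for Syk to Fcer1g 0.60 (Magic-F1 −4.03 ± 0.03, control −4.63 ± 0.18). The last was smaller under other processing. Syk and Fcer1g changed by log2 3.55 and 3.13 with normexp background, and by 3.73 and 3.51 under quantile normalization. Of the 9 ratios the widest difference was that between the TREM receptors, with Trem1 relative to Trem2 at −11.91 ± 0.11 in Magic-F1 samples and −3.55 ± 0.10 in control samples, a difference of −8.36. With normexp background Trem1 changed by log2 −1.13 and Trem2 by 6.46, so the size of this difference depends on the background correction. Within slides 1 and 2 each ratio kept its direction, from −8.34 and −8.38 for Trem1 to Trem2 to 3.74 and 3.50 for Fcrls to Tyrobp, with −0.15 and −0.05 for Fcgr3 to Fcgr2b.

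**Figure D4:**
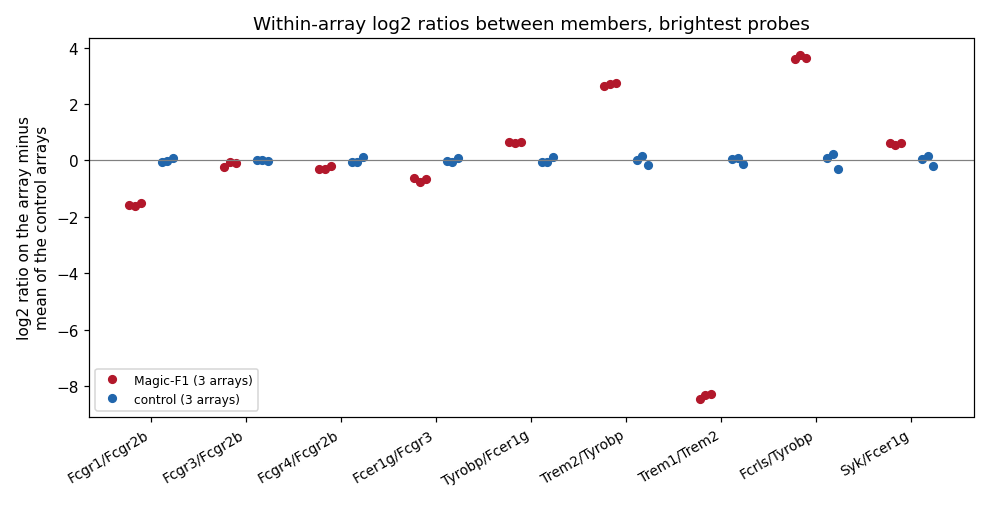
Within-array log2 ratio between the brightest probes of 9 gene pairs, minus the mean of that ratio over the control arrays, with 1 point per array and Magic-F1 left of control. The Magic-F1 points lie near 0 for Fcgr3/Fcgr2b (−0.11, and 0.16 under quantile normalization), at 3.66 for Fcrls/Tyrobp and at −8.36 for Trem1/Trem2.

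Most relatives of these receptors did not pass the filter on dim probes. Of 14 other Fc and TREM family genes, 12 were on the array and 3 were tested. Fcgrt, the neonatal Fc receptor that recycles IgG, was 3.14-fold higher (log2 1.65, SE 0.05, adjusted p = 3.65e-07). Treml1, a TREM-like protein of platelets, was 2.38-fold lower (log2 −1.25, SE 0.06, adjusted p = 3.04e-06). Treml4 was not called (log2 0.16, SE 0.08, adjusted p = 0.0889), but it was called higher, which made 2 of the 3 higher, without control replicate 1 (log2 0.23), under quantile normalization (0.23), median scaling (0.29) and spike-in scaling (0.59), and in the authors' deposited log2 values (0.26). With normexp background its change was −0.10. The other 9, including the IgE receptor chains Fcer1a and Ms4a2 of mast cells and basophils, did not pass. Of all 14908 tested genes, 40.6% were higher and 47.7% lower.

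Other receptors and adaptors listed around ITAM signalling went both ways. The list had 22 genes, of which 17 were tested. Not all of them pair with DAP12 or carry an ITAM or hemITAM of their own. Of these 6 rose, 7 fell and 4 (Cd3e, Cd79a, Oscar and Clec4n) were not called, with a median log2 change of 0.19 against −0.15 over all tested genes. Under spike-in scaling 9 rose and 5 fell, since Cd79a, Oscar and Clec4n were then called higher and Cd79b and Pilrb1 no longer lower. The shares of all tested genes were 40.6% higher and 47.7% lower, as above. The sign of this median was not stable, at −0.01 without Magic-F1 replicate 2, −0.12 with normexp background and 0.62 with spike-in scaling. By fitted change, the 3 largest rises were those of Cd300lb, Hcst and Cd300ld. Cd300lb, an activating receptor, was at least 23.0-fold higher and dim on all control arrays. Hcst, the adaptor DAP10, rose by log2 4.18 (SE 0.09), and Cd300ld by 3.13 (SE 0.09). With normexp background the log2 changes of the 3 were 1.97, 3.42 and 1.33. There 2 lectin receptors that were well above background on all 6 arrays ranked above Cd300lb and Cd300ld. They were Clec7a, the β-glucan receptor Dectin-1 (log2 3.07, and 2.97 with normexp), and Clec4d (2.41, and 2.43 with normexp). By fitted change, the 3 largest falls were those of Gp6, Clec1b and Cd3d. Gp6, the collagen receptor of platelets that signals through the Fc receptor γ chain, was at least 13.3-fold lower. Clec1b, the podoplanin receptor, was at least 22.9-fold lower, and both were dim on all Magic-F1 arrays. Cd3d, a T cell receptor chain, changed by log2 −3.63 (SE 0.78), with 1 of 3 Magic-F1 arrays passing background. With normexp background the log2 changes of the 3 were −1.65, −1.91 and −0.85. The widest fall with normexp was that of Clec4e, the lectin Mincle, which was well above background on all 6 arrays and 7.95-fold lower (log2 −2.99, SE 0.05, and −2.85 with normexp). Gp6 and Clec1b fell along with the platelet markers (4 of 4 lower, 3 of 4 under spike-in scaling), whose part in it was not tested.

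Genes that act around SYK were higher for the most part. Of 35 tested kinases, adaptors and effectors, out of 38 listed, 29 rose, 4 fell and 2 were not called, with a median log2 change of 3.11 (2.83 with Gab2, dim in control samples, at its bound) against −0.15 over all tested genes. Over all tested genes 40.6% were higher and 47.7% lower. With normexp background 28 of the 35 rose and 5 fell, and under spike-in scaling 30 rose and 3 fell. Blnk, an adaptor phosphorylated by SYK, was 201-fold higher (log2 7.65, SE 0.06, adjusted p = 2.03e-08). Inpp5d, the SHIP-1 phosphatase that the Fcgr2b tail recruits, was 51.8-fold higher (log2 5.69, SE 0.11), and Pik3ap1, an adaptor of phosphoinositide 3-kinase, 45.2-fold higher (log2 5.50, SE 0.07). With normexp background Inpp5d and Pik3ap1 rose less, by 3.94 and 4.13. The 4 that fell were Lat (log2 −2.82), the kinases Zap70 (−1.64, with 1 of 3 Magic-F1 arrays passing background) and Lck (−0.86), all 3 known from T cells, and Dok1 (−0.41), whose change became 0.01 under spike-in scaling. With normexp background Lat and Zap70 changed by −1.63 and −0.48. The 2 not called were Plcg1, with log2 changes of −0.21 and 0.62 at its probes, and Bcl10, with −0.07 and 2.02.

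Most of the tested inhibitory receptors rose too. Of 14 tested genes, out of 19 listed, 11 rose and 3 fell, with a median log2 change of 3.35, against 40.6% higher and 47.7% lower over all tested genes. Cd72 was 67.1-fold higher (log2 6.07, SE 0.05, adjusted p = 2.03e-08). Cd22, a sialic acid receptor, was 54.8-fold higher (log2 5.77, SE 0.32), although only 2 of 3 control arrays passed background, and Lair1, a collagen receptor, 53.5-fold higher (log2 5.74, SE 0.06). Their second probes rose by 4.86, 3.50 and 3.84. With normexp background Cd22 and Lair1 rose by 3.44 and 5.03. Cd300lf was at least 10.1-fold lower (normexp log2 −1.30) and Pecam1, an adhesion receptor of endothelium, platelets and leukocytes, at least 5.50-fold lower (normexp −0.97). Pilra fell by 0.58 on the log2 scale (SE 0.08), a call that was lost under spike-in scaling (log2 −0.16, adjusted p = 0.264 by limma), which leaves 2 lower. The rises in this list and around SYK went with the higher macrophage markers, as did those of the Fc receptors, Trem2 and the adaptors, and the part of macrophages in them was not tested.

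**Figure D5:**
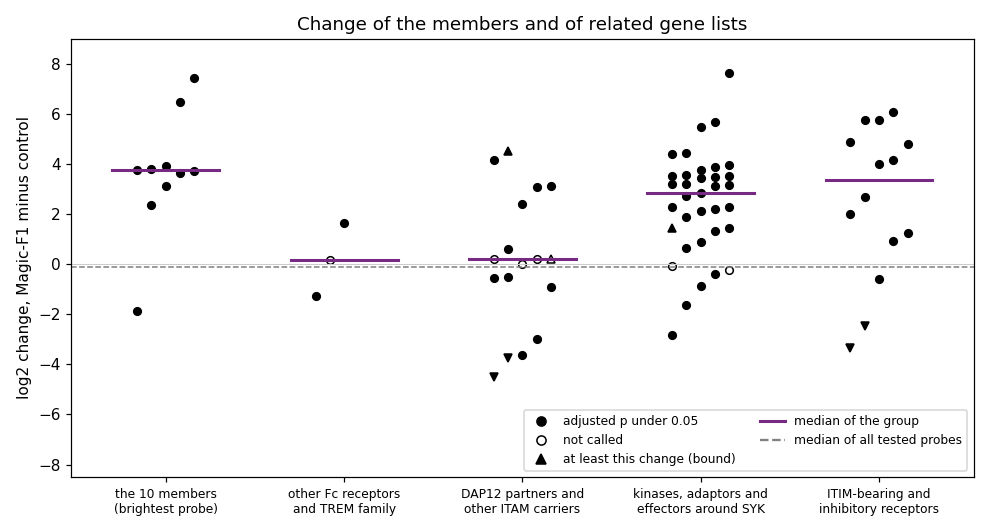
Log2 change, Magic-F1 minus control, of each tested gene by its brightest probe, for the 10 genes and for 4 related lists. Filled points have an adjusted p under 0.05, open points were not called, triangles are genes dim in a whole group, drawn at their bound, the purple bars are medians with those bounds (3.75, 0.16, 0.19, 2.83 and 3.35 from left to right) and the dashed line is the median of all tested probes (−0.10).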

How the data were processed

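Total RNA of 3 Magic-F1 and 3 control samples was labelled with Cy3 and hybridised to 1-colour Agilent arrays of design 014868 with 45018 spots. The processed signal, a spot's intensity after background subtraction and without scaling between arrays, came from Agilent Feature Extraction 10.5.1.1, per the file headers. The authors also deposited a table of log2 values, which equals the log2 processed signal for 4 arrays and differs on both arrays numbered 1 (SD 0.457 for Magic-F1 and 0.473 for control). What else was done to those columns is unknown here.

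Control spots were left out, outlier flags were set to missing, each array's 75th percentile was subtracted from its log2 processed signals, and spots of a probe were averaged. Probes well above background on all 3 arrays of a group were tested with limma 3.58.1 in R 4.3.3 (lmFit, eBayes; group as the only term; 2-sided; Benjamini-Hochberg over 21190 probes at 0.05). A gene is represented by its brightest tested probe, the one with the highest mean log2 signal over all 6 arrays. List genes were named through RefSeq accessions (25097 probes). Where a group was dim on all its arrays, the fold is a bound: on each of those arrays the probe's signal was raised to the lowest signal well above background, if under it, before the means were compared. Alternatives covered normexp background (offset 50), quantile, median and spike-in scaling, both dim-probe filters, slide and replicate blocks, single slides, averaged probes, the deposited table and leaving out each array.

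The members and lists were chosen with earlier results of these data known. All members were named, and from each list the 3 largest called rises and falls by fitted change, and genes behind counts of 5 or fewer; marker genes and lectin receptors beyond this were named after their values were seen. Beyond spot noise, replicate arrays differed by an SD of 0.038 to 0.160 log2, and each was counted as the labels give it. Simulated arrays had the spread of 21186 probes, with 50 probes changed at each size. Of simulated rises 54% were recovered at 0.5 log2, 80% at 1 and 90% at 2, and of falls 78% at −1. Of 20986 unchanged probes 6 were called. In the data 87.7% of tested probes were called, far more than were changed there, so the simulated rates do not carry over to the data. The number of arrays limits the precision.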

Additional observations from a re-analysis of the deposited data

How the results depend on the processing

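All 17 tested probes of the group kept their direction and call under every alternative that tested them, and the counts of 15 higher and 2 lower were the same with each array left out. The setting that tests only probes well above background on all 6 arrays gave 14 higher, since it leaves out the dimmer Fcrls probe, and no filter gave 16, since it adds the second Fcgr1 probe. With the replicate block the counts were again 15 and 2, with 8707 higher and 9841 lower among all tested probes, against 8745 and 9847 without it. The numbers were not taken as pairs, since same-numbered arrays correlated at −0.003, 0.11 and 0.07 in their deviations from group means, and Magic-F1 replicate 1 correlated better with control replicate 3 (0.05). Without 1 array at a time these counts ran over 8450 to 8828 higher and 9552 to 9854 lower. Leaving out arrays moved the log2 change of Trem1 over −1.98 to −1.78, of Fcrls over 7.37 to 7.49, of Tyrobp over 3.71 to 3.87 and of Trem2 over 6.42 to 6.51. Spike-in scaling moved the median change of all tested probes by 0.42 and the called probes to 10735 higher and 7243 lower (59.7% higher, against 47.0%), and median scaling moved it by 0.13. The median of the other Fc and TREM genes became −0.10 with normexp background, and that of the DAP12 and ITAM list ran over −0.01 (without Magic-F1 replicate 2) to 0.25 without 1 array. Of the T, B and NK cell markers 2 were higher without Magic-F1 replicate 2, against 1 with all arrays. Ratios from other pairs of tested probes, an alternative chosen after seeing the data, ran up to 3.53 for Trem2 to Tyrobp, 7.54 for Fcrls to Tyrobp and −9.23 for Trem1 to Trem2, none in the opposite direction. Quantile normalization, also tried on the ratios after seeing the data, turned Fcgr3 to Fcgr2b to 0.16 and kept the direction of the other 8, though not the size of Syk to Fcer1g. Depth is set by signal over background: Trem1 and the second Fcgr1 probe in both groups, and the dimmer Fcrls probe in control samples, lie near it.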
